A study of Saccharomyces cerevisiae BY4741 with 2 samples.

Results

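The mitochondrial ribosomal protein genes of budding yeast were taken as the rows of a sense-strand count table whose standard gene name is MRPL, MRPS, MRP or RSM followed by a number. The rule gave 67 of 7134 rows, 34 with MRPL names (large subunit) and 33 with small-subunit names (9 MRPS, 13 MRP and 11 RSM). Strand-specific RNA sequencing had compared a wild-type strain of Saccharomyces cerevisiae with a strain lacking DBP2, which encodes a DEAD-box RNA helicase. The wild type was MATa with his3Δ1, leu2Δ0, met15Δ0 and ura3Δ0. The deletion strain was MATa with KanMx in place of DBP2, and with ura3Δ0, leu2Δ0, his3Δ0, TRP1, met- and lysΔ. Both strains were harvested in mid-log growth on rich medium with glucose, and their total RNA was depleted of ribosomal RNA. Each strain had 2 libraries, called wild type 1 and 2 and deletion 2 and 3 after the columns of the table.

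The mitochondrial ribosome translates the few messages of the mitochondrial genome, most of which encode membrane subunits of the respiratory chain and the ATP synthase. Its RNAs are made inside the organelle, while all but one of its proteins are encoded in the nucleus, made in the cytosol and imported. Part of these proteins descend from bacterial ribosomal proteins and the others are specific to mitochondria. Many of their messages are bound in the 3′ untranslated region by Puf3, a Pumilio-family protein that in glucose-grown cells promotes the decay of messages for mitochondrial proteins.

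Library totals ran from 10860000 to 36028173 counts, and the deletion libraries were the deeper ones. The wild-type libraries held 7320 and 9662 counts of DBP2 itself, against 66 and 237 counts in deletion 2 and 3. The labels do not state if replicate libraries were grown as separate cultures. The p-values therefore reflect the spread of the replicate libraries alone, and this may be technical. The other marker differences between the strains cannot be told apart from the deletion. All 67 members passed the filter on low counts that left 6124 features. Levels below are CPM (counts divided by the TMM-scaled library size), and fold changes are deletion over wild type. A gene was called when its p-value in edgeR's quasi-likelihood test, adjusted by Benjamini-Hochberg over all features, was below 0.05.

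Of the 67 members, 24 (35.8%) fell, 4 (5.97%) rose and 39 were not called. Over all features, 20.7% were called lower and 21.2% were called higher. The members' median log2 fold change was -0.40, against 0.01 over all features, and 50 members lay below 0. Both subunits showed nearly the same picture. Among MRPL names 12 fell and 1 rose, with a median log2 fold change of -0.35, and among small-subunit names 12 fell and 3 rose, with a median of -0.42. These medians were negative with TMM scaling and turned to 0.10 and 0.036 when libraries were scaled by their totals alone, where 10 members were called lower and 12 higher. That scaling moved the median of all features by 0.449, from 0.01 to 0.46. Fewer members were called lower without 1 library, 11 without deletion 2 and 16 without wild type 2. Members called higher numbered 2 without wild type 2, deletion 2 or deletion 3 in turn.

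**Figure D1:**
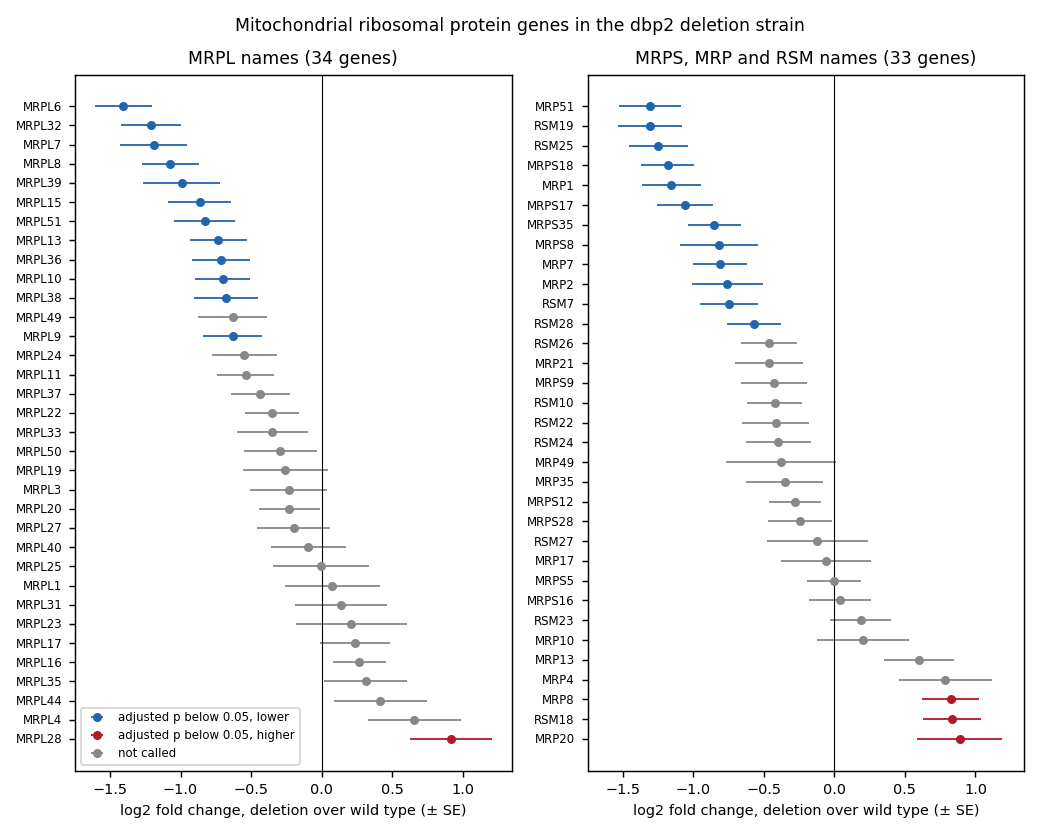
Log2 fold change (deletion over wild type, TMM scaling) of the 34 MRPL genes and the 33 MRPS, MRP and RSM genes, each point a gene with its standard error, coloured by its call at an adjusted p below 0.05. In each panel 12 genes were called lower, and the medians, -0.35 and -0.42, turned positive (0.10 and 0.036) with scaling by library totals.

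The subunits were also set against each other within each library. The difference between their median log2 fold changes was 0.06, with the smaller fall in MRPL names. For MRPL names the median log2 CPM was 4.81 and 4.73 in the wild-type libraries and 4.27 and 4.10 in the deletion libraries. For small-subunit names it was 5.04 and 5.02 in the wild type and 4.65 and 4.77 in the strain without DBP2. The gap between these medians was wider in both deletion libraries, so on this measure the larger fall was in MRPL names. The 2 measures thus point in opposite directions. The SD of the gap between libraries of a strain was 0.148. That SD does not measure the spread of the difference of 0.06. The summed level of the MRPL genes was 1097 and 1111 CPM in wild type 1 and 2 and 719 and 777 CPM in deletion 2 and 3. For the small-subunit names the sums were 1383 and 1460 CPM in the wild-type libraries and 981 and 1080 CPM in the deletion libraries. The ratio of the first sum to the second was 0.794 and 0.761 in wild type 1 and 2. In deletion 2 and 3 it was 0.733 and 0.719, the same direction as the wider gap. The ranges of the ratio did not overlap but lay close together. As a share of all counts, unscaled, the 67 genes took 0.210% and 0.223% of the wild-type libraries and 0.192% and 0.224% of the deletion libraries, and these ranges overlapped.

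The names do not follow the subunits exactly. MRP7, MRP20, MRP35 and MRP49 encode large-subunit proteins, RSM22 encodes a methyltransferase-like assembly factor, and MRP8 is not established as a ribosomal protein. Grouped by structure, 13 of 38 large-subunit genes fell and 2 rose, with a median log2 fold change of -0.35. Of 27 small-subunit genes 11 fell and 1 rose, with a median of -0.43. Both medians turned positive with library totals, to 0.097 and 0.020. Without MRP8 and RSM22, 24 of 65 members fell and 3 rose.

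The messages share a sequence feature that the naming rule did not use. The Puf3 core motif TGTANATA, searched on the sense strand of the 300 bases after the stop codon in the R64 genome, was present in 65 of 67 members (97.0%) and in 972 of 6021 protein-coding genes (16.1%). All 34 MRPL genes and 31 of 33 small-subunit names held it. The members without it were MRP8 and RSM22. Sites of members that fell, rose or were not called are shown side by side, 5′ to 3′ on the gene's own strand, to let the elements be compared, with the motif in capitals.
MRPL6 (fell): agggaatacctTGTAAATAtcctatgaaaa
MRP51 (fell): attcagagttcTGTAAATAaataaagaaaa
RSM25 (fell): cctaaccaaccTGTATATAattaaaaacaa
MRPL32 (fell): aaacttaagccTGTATATAgaaacttaatt
MRPS18 (fell): atatatattcgTGTAAATAattcgattttt
MRP1 (fell): ttggtagtctcTGTAAATAtataaagtcaa
MRPL28 (rose): ctgtctcctgcTGTAAATAactgatgatca
RSM18 (rose): atagttctgtcTGTAAATAtacaatatgta
MRP20 (rose): cccctcacactTGTATATAcggagcaaact
MRPS12 (not called): atacaacctttTGTAAATAgcaatgaccat
MRP4 (not called): taacctaaactTGTACATAtgcccatatat
In R64 the MRPL6 site lies at chrVIII:392535-392564 on the minus strand, the MRP51 site at chrXVI:327697-327726 and the MRP1 site at chrIV:1170183-1170212, both on the plus strand. The MRPL28 site lies at chrIV:1386537-1386566 on the plus strand. Of the 4 members that rose, MRPL28, RSM18 and MRP20 carry the core and MRP8 does not.

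The first site began 8 to 139 bases after the stop codon, with a median of 51 bases, so all 65 were also found in a window of 150 bases, where 754 of all genes (12.5%) had one. A single motif was found in 50 members, 13 had 2 and 2 had 3. The motif with C as the base next but one before it was present in 52 members (77.6%) and in 281 of all genes (4.67%). On the other strand of the same window 15 members (22.4%) held the core, against 15.8% of all genes. The free base of the first site was A in 32 members, T in 20, C in 12 and G in 1, so A made up 49.2%, while among all genes with the motif it made up 27.7% and T 49.1%.

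By number of copies, members with 1 motif had a median log2 fold change of -0.43 and those with 2 or 3 motifs one of -0.35 (0.024 and 0.099 with library totals). Among the 878 other protein-coding features with the motif, 23.9% were called lower and 18.2% higher, with a median of -0.04. Among the 4652 features without it, MRP8 and RSM22 included, 17.8% were lower and 23.1% higher, with a median of 0.08. PUF3 was measured at 32.3 and 19.2 CPM in the wild-type libraries and 33.9 and 30.9 CPM in the deletion libraries, which overlapped, and its log2 fold change of 0.33 was not called (adjusted p = 0.338).

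**Figure D2:**
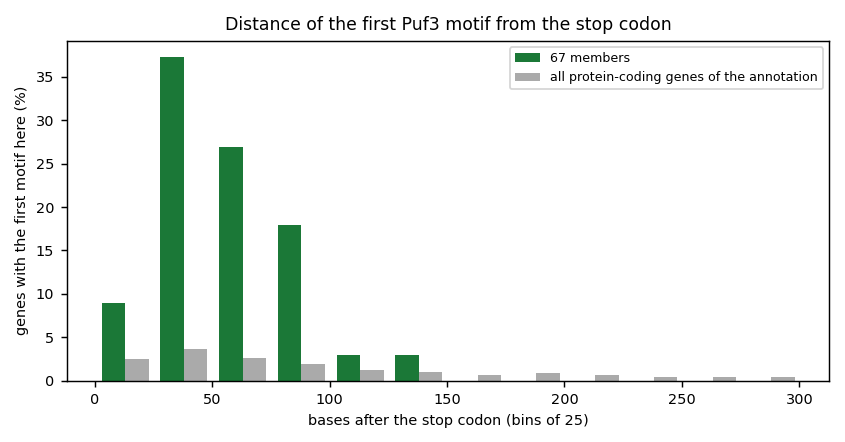
Share of the 67 members and of all 6021 protein-coding genes (bars, %) whose first Puf3 motif (TGTANATA) lies at a given distance from the stop codon, in bases, up to 300 bases after it. The members' sites lie between 8 and 139 bases, with a median of 51.

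Among large-subunit names, MRPL6 (YHR147C, chrVIII:392639-393283, minus strand), the counterpart of bacterial ribosomal protein uL6, fell most. It measured 75.1 and 72.6 CPM in the wild-type libraries and 24.9 and 30.9 CPM in the deletion libraries. This was a log2 fold change of -1.41 (SE 0.20, adjusted p = 8.55e-04). Both deletion libraries lay far below both wild-type libraries, which were nearly equal.

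MRPL32, whose product in yeast matures through cleavage by the m-AAA protease of the inner membrane, had 43.1 and 37.6 CPM in the wild type and 17.7 and 17.2 CPM in the strain without DBP2 (log2 fold change -1.21, SE 0.21, adjusted p = 0.00227). For MRPL7, the uL5 counterpart, the wild-type values were 68.6 and 89.4 CPM and the deletion values 28.9 and 40.4 CPM (log2 fold change -1.19, SE 0.23, adjusted p = 0.00384). The bL17 counterpart MRPL8 was at 67.9 and 83.2 CPM against 33.9 and 37.99 CPM (log2 fold change -1.07, SE 0.20, adjusted p = 0.00305). In these 3 genes too the strains did not overlap, although the wild-type libraries differed from each other in MRPL7 and MRPL8.

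MRPL15 and MRPL51, which encode mitochondrion-specific proteins, fell by 0.86 and 0.83 on the log2 scale (adjusted p = 0.0133 for both). Their calls were lost without deletion 2 (adjusted p = 0.107 and 0.101). Without it MRPL36, the bL31 counterpart, also lost its call (log2 fold change -0.71, adjusted p = 0.0203, and 0.170 without deletion 2). MRPL36 was not called without wild type 2 either (adjusted p = 0.0712). With library totals MRPL15, MRPL51, MRPL36 and MRP7 were not called, MRPL36 at -0.26 on the log2 scale (adjusted p = 0.360). The others called lower among MRPL names were MRPL39, MRPL13, MRPL10, MRPL38 and MRPL9, between MRPL39 at -0.99 and MRPL9 at -0.63 on the log2 scale. MRP7, the large-subunit bL27 counterpart, which lies near the peptidyl transferase centre, measured 76.2 and 75.5 CPM in the wild type and 40.1 and 46.6 CPM in the strain without DBP2 (log2 fold change -0.81, SE 0.19, adjusted p = 0.00901). Leaving out deletion 2 took its call away (adjusted p = 0.0624).

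Among small-subunit names, MRP51 (YPL118W, chrXVI:326628-327662, plus strand), known in yeast for genetic ties to the leaders of mitochondrial messages, had 114 and 123 CPM in the wild-type libraries. Deletion 2 and 3 had 39.7 and 55.9 CPM of MRP51, a log2 fold change of -1.31 (SE 0.22, adjusted p = 0.00173). The deletion libraries differed from each other here but both stayed under the lower wild-type value.

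RSM19, the uS19 counterpart, was at 34.6 and 32.4 CPM in the wild type and 12.4 and 14.7 CPM in the strain without DBP2 (log2 fold change -1.30, SE 0.23, adjusted p = 0.00211). The mitochondrion-specific RSM25 had 51.4 and 62.0 CPM against 22.0 and 25.9 CPM (log2 fold change -1.25, SE 0.21, adjusted p = 0.00192). For MRPS18, the uS11 counterpart, the values were 94.7 and 88.2 CPM against 39.6 and 41.1 CPM (log2 fold change -1.18, SE 0.19, adjusted p = 0.00131). In all 3 the strains did not overlap, although the wild-type libraries of RSM25 differed from each other.

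MRP1, a mitochondrion-specific protein related in sequence to superoxide dismutases, measured 107 and 145 CPM in the wild type and 55.4 and 57.9 CPM in the strain without DBP2 (log2 fold change -1.16, SE 0.21, adjusted p = 0.00254). MRPS17, the uS17 counterpart, stood at 58.7 and 54.9 CPM against 25.1 and 29.5 CPM (log2 fold change -1.06, SE 0.20, adjusted p = 0.00325). The strains did not overlap in either gene. MRPS35, MRPS8, MRP2, RSM7 and RSM28 completed the small-subunit names called lower, from MRPS35 at -0.85 to RSM28 at -0.57 on the log2 scale.

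Over both subunits 10 members were called at least 2-fold lower. The fall of called members ran from 1.48-fold to 2.65-fold and the rise from 1.77-fold to 1.89-fold, and 11 of the 24 were called lower whichever library was left out.

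**Figure D3:**
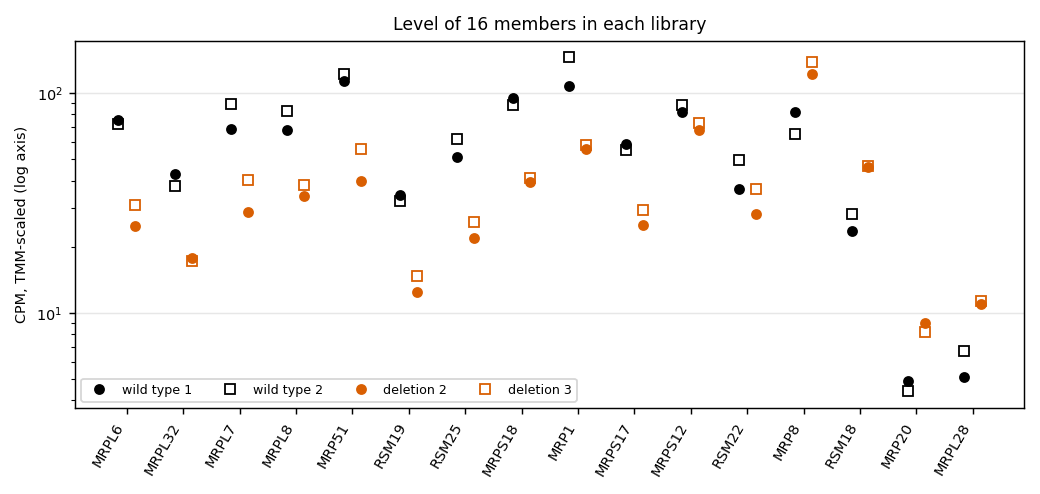
Level of 16 of the named members in each of the 4 libraries, in CPM after TMM scaling on a log axis, wild-type libraries in black and deletion libraries in orange. The deletion points of MRPL6 (24.9 and 30.9 CPM) lie below its wild-type points (75.1 and 72.6 CPM), and those of RSM18, MRP8, MRPL28 and MRP20 lie above.

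Of the 17 members with a log2 fold change above 0, the 4 called higher were RSM18, MRP8, MRPL28 and MRP20. RSM18, the bS18 counterpart, had 23.7 and 28.1 CPM in the wild type and 46.0 and 46.4 CPM in the strain without DBP2 (log2 fold change 0.83, SE 0.21, adjusted p = 0.0111). It was the only one of the 4 called whichever library was left out. MRP8 had 81.6 and 65.4 CPM against 122 and 138 CPM (log2 fold change 0.82, SE 0.20, adjusted p = 0.0104), with an adjusted p of 0.0522 without wild type 2.

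MRPL28, a mitochondrion-specific large-subunit protein, had 5.12 and 6.69 CPM against 11.02 and 11.3 CPM (log2 fold change 0.92, SE 0.29, adjusted p = 0.0312). Without deletion 2 its adjusted p was 0.125, without deletion 3 0.116 and without wild type 1 0.0869. MRP20, the uL23 counterpart at the exit of the peptide tunnel, had 4.91 and 4.40 CPM against 9.01 and 8.17 CPM (log2 fold change 0.89, SE 0.30, adjusted p = 0.0396). Its adjusted p lay between 0.0530 and 0.226 when 1 library was left out and was 0.0671 with DESeq2. With abundance offsets neither gene was called, MRPL28 at 0.39 (adjusted p = 0.320) and MRP20 at 0.37 (adjusted p = 0.332) on the log2 scale. Both are low-level messages, and neither pair of strains overlapped.

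Of the members not called, MRP4, the uS2 counterpart, had the largest positive value. It measured 17.7 and 8.61 CPM in wild type 1 and 2 and 23.9 and 21.2 CPM in deletion 2 and 3 (log2 fold change 0.79, SE 0.33, adjusted p = 0.0819). Its wild-type libraries differed more from each other than wild type 1 did from either deletion library, and without wild type 1 it was called (log2 fold change 1.39, adjusted p = 0.00663). MRPL4, the uL29 counterpart, had a log2 fold change of 0.66 (adjusted p = 0.136) and MRPL49, the bL21 counterpart, one of -0.63 (adjusted p = 0.0647). With library totals MRP4 (log2 fold change 1.24, adjusted p = 0.00493) and MRPL4 (1.10, adjusted p = 0.0139) were called higher, and MRPL49 was not called. MRP35, MRP49 and RSM22 stood at -0.35, -0.38 and -0.42 with TMM scaling and at 0.094, 0.071 and 0.036 with library totals, and none was called.

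Messages of one ribosome were present at very different levels. Per kilobase of coding length, mean wild-type levels ran over a 32.3-fold range, from 5.71 CPM per kb for MRPL4 and 5.87 for MRP20 to 129 for MRPL36 and 184 for MRPS12. MRPS12, the uS12 counterpart of the decoding centre, was not called (log2 fold change -0.28, adjusted p = 0.244, and 0.17 on the log2 scale with library totals). The middle members, from the lower to the upper quartile, lay between 17.0 and 80.7 CPM per kb. The subunits were alike in this level, with medians of 54.1 CPM per kb for MRPL names and 52.5 for small-subunit names in the wild type. In the deletion strain these medians were 36.6 and 31.5 CPM per kb. There MRP49 was lowest at 5.31 CPM per kb and MRP8, not established as a ribosomal protein, highest at 197. MRPS12 came next at 152 CPM per kb.

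The members with higher levels held most of the calls. Above the members' median level of 24.1 CPM over the 4 libraries, 19 of 33 fell and 2 rose, with a median log2 fold change of -0.70. The 2275 protein-coding features in the same range of CPM, members included, had a median of -0.04, and 19.3% of them were called lower. At or below that level 5 of 34 members fell and 2 rose, with a median of -0.16, where 1806 protein-coding features had a median of 0.43 with 6.98% lower and 31.8% higher. Across the 67 genes, log2 fold change and log2 mean CPM had a Pearson's r of -0.45 and a Spearman's rho of -0.52, against -0.36 and -0.40 across 5595 protein-coding features. Genes are not independent replicates, the points share their libraries, and the level enters both measures. With coding length the members' r was 0.003. With offsets that remove the trend with level over all features, 28 members were called lower and 2 higher, and the subunit medians were -0.53 and -0.57. On that scale the members above and at or below 24.1 CPM had medians of -0.60 and -0.48. With library totals those medians were -0.25 and 0.28. The part of level in the members' difference was not tested further.

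**Figure D4:**
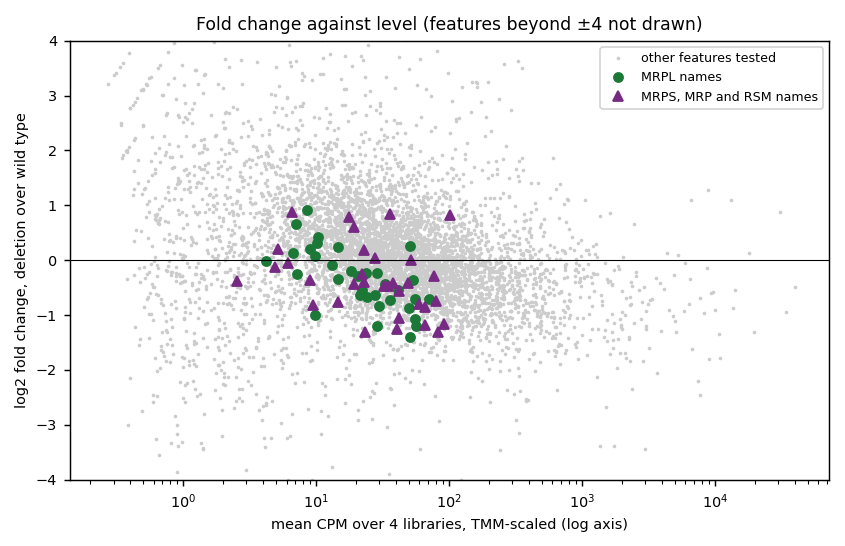
Log2 fold change (TMM scaling) against mean level over the 4 libraries (CPM, log axis) for the members and for other features tested. Features beyond ±4 on the log2 scale are not drawn. Members above 24.1 CPM have a median of -0.70 and those at or below it -0.16.

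By descent, 17 of 41 members with a bacterial homologue fell and 2 rose, with a median log2 fold change of -0.46 (-0.010 with library totals). Of 24 mitochondrion-specific members 7 fell and 1 rose, with a median of -0.23 (0.22 with library totals). In the large subunit the counts were 10 of 24 and 3 of 14, and in the small subunit 7 of 17 and 4 of 10. This grouping was chosen after seeing the data and the difference was not tested.

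Upstream, the nearest annotated gene of 38 members lay on the other strand. No limit was set on its distance, which reached 1335 bases for RSM10 and ENA1, and a shared promoter was not tested. Of the 35 such neighbours that were tested, 9 (25.7%) were called lower, against 20.7% of all features. The 7 called higher made up a share slightly below the 21.2% of all features. These differences, and the pairing of directions between member and neighbour, were not tested. In 3 pairs both genes fell, in 2 both rose, and in 4 the member fell while its neighbour rose. MRPL6 shares its region with IMP3, a component of the small-subunit processome of the nucleolus. IMP3 had 22.8 and 25.6 CPM in the wild type and 68.7 and 39.0 CPM in the strain without DBP2 (log2 fold change 1.15, adjusted p = 0.0102). RSM19 shares its region with DBP6, a DEAD-box helicase of cytosolic large-subunit assembly, which had 40.6 and 26.8 CPM against 120 and 92.8 CPM (log2 fold change 1.66, adjusted p = 0.00100). MRPL6 and IMP3, and RSM19 and DBP6, thus moved apart in both deletion libraries. The other neighbours that rose beside a member that fell had larger log2 fold changes. They were GCV2 beside MRPS17 (log2 fold change 1.79, adjusted p = 2.73e-04) and ATG39 beside MRPL15 (3.68, adjusted p = 2.10e-04).

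The region between MRPL6 and IMP3, chrVIII:393284-393533 in R64, is shown on the strand of MRPL6 because its genes moved in opposite directions. The capitals mark GATGAG, the core of a motif known upstream of yeast ribosome biogenesis genes.
MRPL6 and IMP3: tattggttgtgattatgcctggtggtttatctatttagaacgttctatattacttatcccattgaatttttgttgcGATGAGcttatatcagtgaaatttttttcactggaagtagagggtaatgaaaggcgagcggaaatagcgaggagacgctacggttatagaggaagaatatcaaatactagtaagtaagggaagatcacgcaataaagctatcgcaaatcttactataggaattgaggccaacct
Its first base lies 174 bases before the MRPL6 start codon. GATGAG on either strand was found between 250 bases before and 50 after the start codon in 11 members (16.4%) and in 20.3% of all genes. CCAAT, the letters bound by the Hap complex, was found in 28 members (41.8%) against 43.3% of genes. Of the 28, 10 fell, and of the 39 without it 14 fell, while the 4 that rose were among the 39. AATTTT was found in 28 members (41.8%) against 51.8% of genes, and AAAATTTT, which contains it, in 5 members (7.46%) against 542 of 6021 genes. These shares are a description, and their differences were not tested.

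Mitoribosomal proteins with other names were mixed as well. Of 8 large-subunit genes 3 (37.5%) fell and 1 (12.5%) rose, against 20.7% and 21.2% of all features. Their median log2 fold change was -0.16 (0.29 with library totals). MNP1, the bL12 counterpart, had 231 and 270 CPM in the wild type and 110 and 119 CPM in the strain without DBP2 (log2 fold change -1.13, adjusted p = 0.00194). IMG1 rose by 0.65 on the log2 scale (adjusted p = 0.0345). Of 7 small-subunit genes 2 (28.6%) fell, against 20.7% of all features. They were PET123 at -1.12 and NAM9 at -0.59 on the log2 scale (adjusted p = 0.0136 and 0.0327). The list had a median of -0.20 (0.25 with library totals).

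Factors that work with the ribosome were counted in the same way. Of 14 translation factors 5 (35.7%) fell and 1 (7.14%) rose, against 20.7% and 21.2% of all features. Their median log2 fold change was -0.35 (0.091 with library totals). TUF1, the mitochondrial elongation factor Tu, had 470 and 497 CPM in the wild type and 150 and 163 CPM in the strain without DBP2 (log2 fold change -1.63, adjusted p = 2.69e-04), against -1.41 for MRPL6, the member that fell most. MEF1, elongation factor G, was at -1.65 (adjusted p = 0.00172). Of 13 mitochondrial tRNA synthetases 3 (23.1%) fell, near the 20.7% of all features called lower, and 1 rose. Those that fell included MSY1 for tyrosine at -1.49 and MSW1 for tryptophan at -1.48 on the log2 scale. Of 11 genes of mitoribosome assembly and RNA handling 6 (54.55%) fell, against 20.7% of all features, and the others were not called. Among those that fell, the DEAD-box helicase MSS116 went from 236 and 203 CPM to 101 in both deletion libraries (log2 fold change -1.11, adjusted p = 0.00196).

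The mitochondrial ribosomal RNAs themselves were higher, although the libraries had been depleted of ribosomal RNA. The 15S RNA row (Q0020) had 8892 and 7983 CPM in the wild type and 17100 and 18798 CPM in the strain without DBP2 (log2 fold change 1.09, adjusted p = 6.93e-04). The 21S RNA row (Q0158) had 22591 and 20750 CPM against 38362 and 40790 CPM (log2 fold change 0.87, adjusted p = 0.00137). These values describe what the depletion left, and its part in them was not tested. Respiratory chain and ATP synthase genes of the nucleus rose as well, with 38 of 41 called higher (92.7%, against 21.2% of all features). Their median log2 fold change was 1.56. The Puf3 motif was present in 10 of these 41 genes, against 972 of 6021 protein-coding genes (16.1%).

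**Figure D5:**
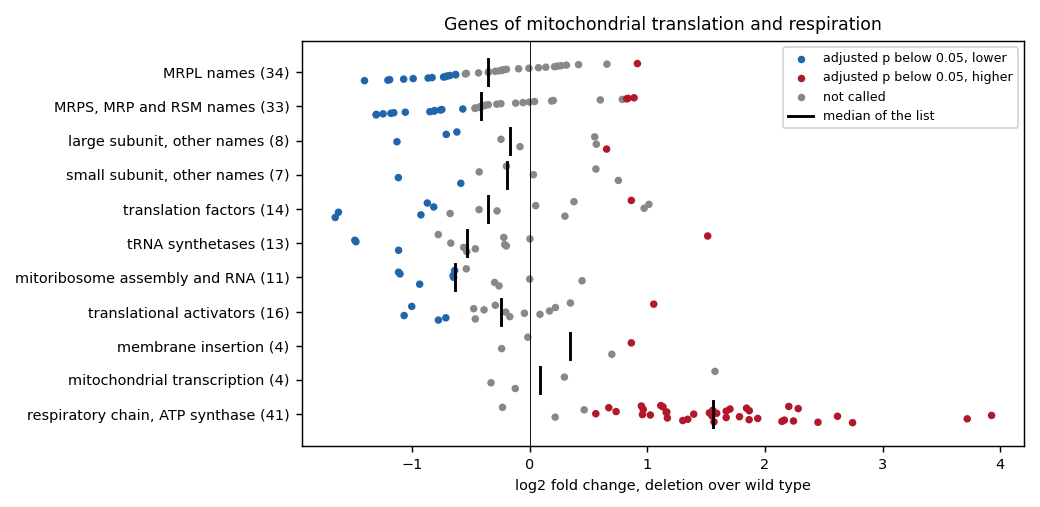
Log2 fold change (deletion over wild type, TMM scaling) of single genes in 11 lists, with the number tested in brackets, coloured by call, and the median of each list as a black bar. MRPL and small-subunit names have medians of -0.35 and -0.42 (0.10 and 0.036 with library totals), and the respiratory chain and ATP synthase list has one of 1.56.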

How the data were processed

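The authors deposited raw sense-strand read counts, which are whole numbers that were not normalized (per the file headers and values). They also deposited an edgeR table with log2 fold changes and p-values, per the file headers. Per the submitters' processing notes the build was sacCer3 (R64). Aligner and counter were not given in the sources used here. Counts of the 4 libraries were fitted over all features with edgeR 4.0.16 in R 4.3.3 (filterByExpr, TMM, quasi-likelihood test, Benjamini-Hochberg adjustment). The fit was also run on counts simulated from its own model, with known changes balanced in direction. That run does not test the choice between TMM scaling and library totals. Alternatives were DESeq2 1.42.0, RLE scaling, library totals, offsets that follow abundance (loess), the exact test, no filter, and each library left out.

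The members and gene lists were chosen with earlier results of these data known. Groupings by descent and level, the divergent neighbours, the motif with a preceding C and the other strand, and the count without MRP8 and RSM22 were added after seeing the data. Named members are, per subunit name class, up to 6 called lower and 4 called higher with the smallest p, the highest and lowest level per kb, the 3 uncalled with the largest change, and those whose name and structure differ. Up to 3 genes of each other list were named by p. IMP3, DBP6, GCV2, ATG39, IMG1, NAM9 and the members listed with a range were named after their values were seen. MRPL19 overlaps YNL184C on the same strand, so its value is uncertain. Sequences were read from the R64 genome.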

Additional observations from a re-analysis of the deposited data

How the results depend on the processing

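The members called lower and higher numbered 24 and 4 in the main analysis, 24 and 3 with DESeq2, and 24 and 4 with RLE scaling, the exact test and no filter. With library totals they numbered 10 and 12, and the subunit medians turned from -0.35 (large) and -0.42 (small) to 0.10 and 0.036. MRPS12, MRP35, MRP49 and RSM22, none of them called, turned to 0.17, 0.094, 0.071 and 0.036. With abundance offsets they numbered 28 and 2, and the medians were -0.53 and -0.57. Leaving out 1 library gave 11 to 21 lower and 2 to 3 higher, with medians of -0.48 to -0.34 (large) and -0.48 to -0.27 (small). The difference between the medians lay between -0.06 and 0.07 when 1 library was left out. Members called lower in every setting numbered 10. The cause was not tested beyond what the construction of each alternative shows, namely fewer libraries or another scale. The authors' deposited table calls 24 members lower and 5 higher, of which 24 and 4 are those called here. The member called higher only there is MRP4 (edgeR FDR 0.0423). Low counts limit the low-level members, MRPL28 and MRP20 among them, and 2 libraries a strain limit all.

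No paired analysis was made. The labels number the libraries of both strains 1 and 2, while the columns number the wild type 1 and 2 and the deletion 2 and 3. Neither states that libraries of the strains were paired.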

Other observations

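Translational activators, nuclear-encoded proteins that each act on single mitochondrial messages, were mixed. Of 16 tested, 4 fell and 1 rose, with a median log2 fold change of -0.25 (0.20 with scaling by library totals). AEP2, needed for the ATP9 message, was at -1.003 and PET309, needed for COX1, at -0.78 on the log2 scale. ATP22 rose by 1.05 on the same scale (adjusted p = 0.00610). Of 4 membrane insertion genes MDM38 rose (log2 fold change 0.86, adjusted p = 0.00956). Of 132 cytosolic ribosomal protein genes 43 (32.6%) fell and 7 (5.30%) rose, against 20.7% and 21.2% of all features. Their median was -0.30 (0.14 with library totals and 0.24 with offsets that follow abundance). The Puf3 motif was present in 11 of these 132 genes, against 16.1% of all protein-coding genes. Over the 67 mitochondrial members, log2 CPM correlated at r = 0.971 between the wild-type libraries, 0.981 between the deletion libraries and 0.868 to 0.914 across strains.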
